A study of Mus musculus with 24 samples.

Results

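The genes of NADH:ubiquinone oxidoreductase (complex I), the entry enzyme of the mitochondrial respiratory chain, were followed in aged mouse kidney cortex. Members were all genes of the normalized table whose symbol in that table starts with Nduf, continues with a, b, c, s or v and then has a digit. Of 16921 genes, 37 met this rule, and the subunits encoded in mitochondrial DNA were left out of it. All 37 were abundant enough to be tested, with 16 to 14217 counts per library. By the subunits' known places, 8 belong to the N module, 8 to the Q module, 9 to the proximal part of the membrane arm and 10 to its distal part. The remaining 2 carry the family name but lie outside the enzyme: Ndufa4, a protein now assigned to cytochrome c oxidase, and its paralogue Ndufa4l2.

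The study asked how a low protein diet acts on the kidney of old mice with and without the hormone FGF21. All animals were males on a C57BL6/J background, aged 22 months, that had eaten their diet freely since 3 months of age. Casein was the protein source, at 20% in the normal protein diet (NP) and 5% in the low protein diet (LP). Wild type mice (WT) and FGF21 KO mice (KO) on each diet gave the groups WT_NP, WT_LP, KO_NP and KO_LP, with 6 libraries each. The allele of the knockout is not described in the labels, and Fgf21 has no row in the tables used here, so the genotype could not be checked on its own transcript. Lexogen QuantSeq libraries place 1 fragment near the 3′ end of each transcript, so the counts are not scaled by transcript length and levels are compared here within a gene. Levels are in CPM (counts scaled to a common library total), with the mean ± SD of a group's 6 libraries. An edgeR fit over all 24 libraries gave the log2 folds. Their standard errors (SE) were derived from its test, as the absolute log2 fold over the square root of the F statistic. A gene was called at an edgeR adjusted p under 0.05, adjusted over the 15165 genes tested. Genes said to have fallen or risen were called lower or higher. The labels give each library its own identifier but do not describe how the animals were housed or processed in batches, so the p-values measure the spread between these libraries.

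Complex I takes electrons from NADH and passes them to ubiquinone while pumping protons across the inner membrane. Its matrix arm holds the N module, which oxidises NADH, and the Q module, where ubiquinone is reduced. The membrane arm carries the proton pumps, whose pumping subunits are encoded in mitochondrial DNA and are surrounded by nuclear-encoded accessory subunits. In the kidney cortex the enzyme is known for its abundance in the proximal tubule, which reabsorbs solutes at a high cost in ATP. FGF21 is a circulating hormone, made mainly in the liver, that rises when dietary protein is restricted.

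Genes of the respiratory chain are often described as sharing promoter sites for nuclear respiratory factor 1 (NRF1), the estrogen-related receptors (ERR), factors of the ETS family such as GABPA, and YY1. RefSeq windows on GRCm38.p6, from 250 bases before to 50 bases after a transcription start, were found for 32 of the 37 members, and the other 5, Ndufs1 among them, had no entry. The letters GCGCA, then any base, then GCGC (NRF1) were found on either strand in 8 of the members' 34 windows (23.5%), against 4.60% of all 32851 windows of that length. AAGATGG (YY1) was in 7 windows (20.6% against 6.34%), CCGGAAG (ETS) in 4 (11.8% against 8.86%) and AAGGTCA (ERR) in 3 (8.82% against 4.72%). The members' windows had a median GC content of 59%, against 52.7% over all windows, which bears on how often GC-rich letters occur. Of the 32 members, 14 held none of these letters in any of their windows. Over all windows, counted singly and not by gene, 78.0% held none. Shown are the promoters of the 3 members with the lowest adjusted p in the diet comparison of KO mice, with the matched motif in capitals: CCGGAAG from position -20 of Ndufb7, the NRF1 letters from position -60 of Ndufa11, and no match in Ndufa10. No matches overlapped.
Ndufb7, chr8:83566508-83566807, plus strand: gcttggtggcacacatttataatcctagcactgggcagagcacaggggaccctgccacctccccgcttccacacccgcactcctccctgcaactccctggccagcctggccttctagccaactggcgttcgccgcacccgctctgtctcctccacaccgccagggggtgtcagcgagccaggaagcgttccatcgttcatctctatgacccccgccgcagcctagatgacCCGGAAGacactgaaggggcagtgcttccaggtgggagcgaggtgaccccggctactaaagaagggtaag
Ndufa11, chr17:56717512-56717811, plus strand: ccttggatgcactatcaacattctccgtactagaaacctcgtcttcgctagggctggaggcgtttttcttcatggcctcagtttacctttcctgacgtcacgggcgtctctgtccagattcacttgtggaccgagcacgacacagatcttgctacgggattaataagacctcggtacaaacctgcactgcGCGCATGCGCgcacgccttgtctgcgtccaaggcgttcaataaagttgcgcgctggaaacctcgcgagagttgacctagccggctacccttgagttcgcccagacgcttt
Ndufa10, chr1:92473709-92474008, minus strand: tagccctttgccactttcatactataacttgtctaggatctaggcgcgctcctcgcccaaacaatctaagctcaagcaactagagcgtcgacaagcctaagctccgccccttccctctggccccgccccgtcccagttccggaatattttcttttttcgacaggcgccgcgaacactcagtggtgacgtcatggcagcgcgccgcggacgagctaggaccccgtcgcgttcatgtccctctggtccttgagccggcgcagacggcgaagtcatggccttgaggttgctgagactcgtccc

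In KO mice, called members were lower on LP than on NP in each of the 4 modules. Of the 37 members, 15 fell and 0 rose, while 3.58% of all genes tested were called lower and 3.59% higher. The log2 fold was below 0 for 36 of 37 members (45.1% of all genes), with a median of -0.32, or 20.1% less, against a median of 0.03 over all genes. At an unadjusted p under 0.05 stood 30 of the 37, against 27.9% of all genes. The lowest log2 fold was -0.41 (Ndufs1) and the highest 0.34 (Ndufa4l2). The 6 KO_LP libraries lay wholly below the 6 KO_NP libraries for 4 members, Ndufb7, Ndufa11, Ndufs1 and Ndufv1, a separation that 2.06% of all genes showed. The counts come from bulk cortex, where fewer cells of a type and less RNA per cell cannot be told apart.

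**Figure D1:**
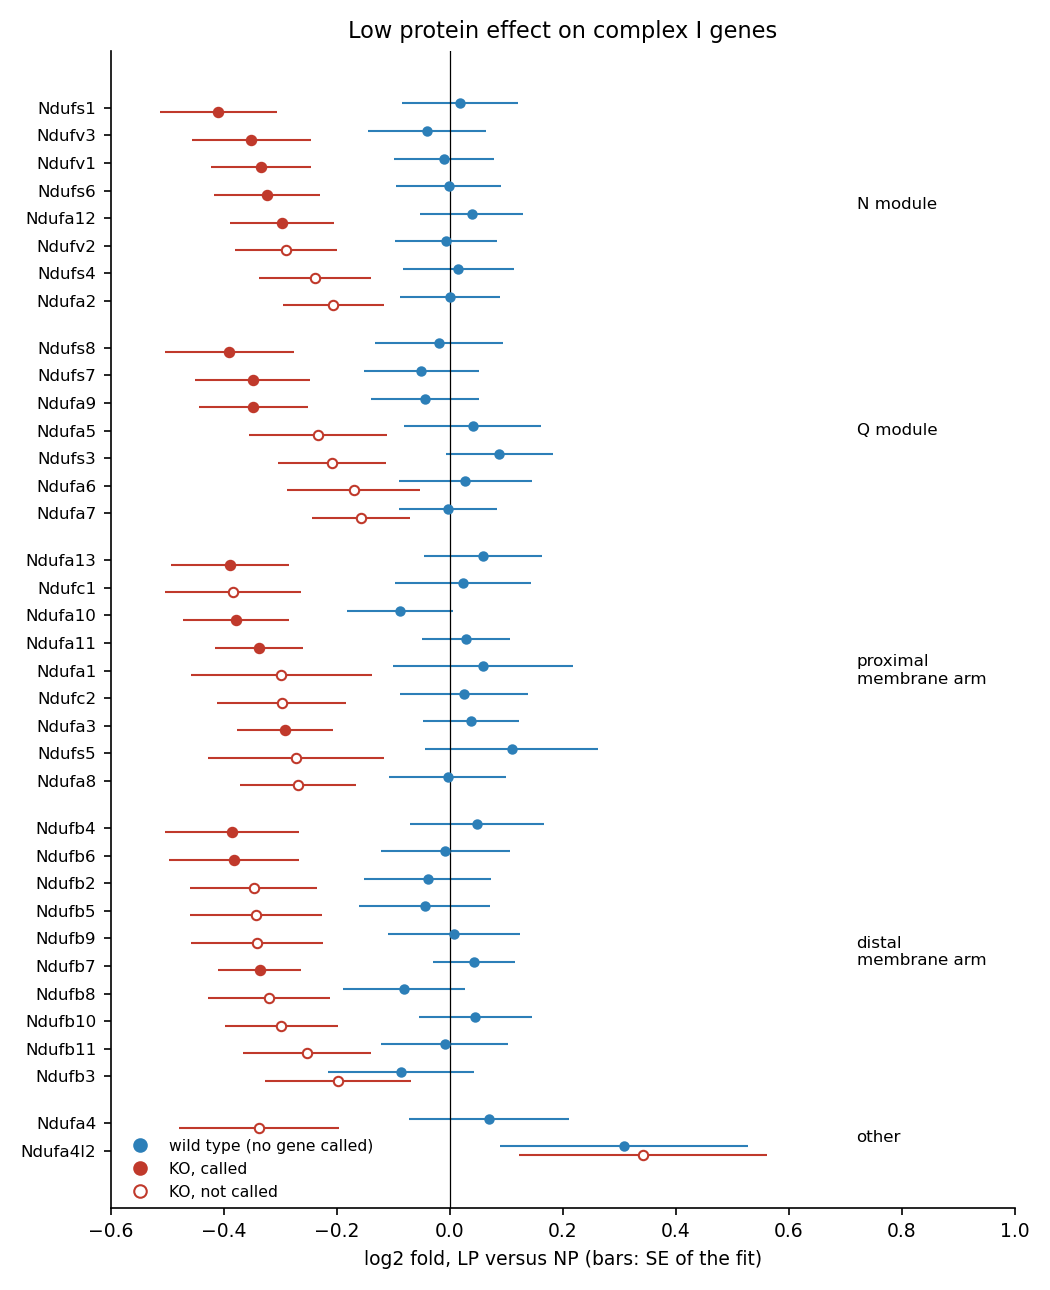
Log2 fold of LP against NP for 36 of the 37 members, grouped by module, in KO mice (red, filled where called) and wild type mice (blue), with bars for the SE derived from the test. The KO values of 35 of those drawn lie left of 0, and Ndufa4l2 lies right of it at 0.34, whereas the wild type values scatter around 0.

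In the N module, 5 of 8 members fell in KO mice, with a median log2 fold of -0.31. Ndufv1, the subunit that binds NADH and FMN, ranged from 279 to 308 CPM in KO_NP (median 302) and from 193 to 278 CPM in KO_LP (median 238). Its means were 297 ± 10.6 and 236 ± 30.8 CPM, a log2 fold of -0.33 (SE 0.089, edgeR adjusted p = 0.032). Every KO_LP library was below every KO_NP library. Ndufs1, the large iron-sulfur subunit that takes the electrons onward, ranged from 223 to 256 CPM in KO_NP (median 243) and from 152 to 221 CPM in KO_LP (median 188). Its log2 fold was -0.41 (SE 0.104, edgeR adjusted p = 0.0258), the lowest among the members, again without overlap of the groups. Ndufs6, a zinc-binding accessory subunit, went from 275 ± 24.4 to 220 ± 27.7 CPM (log2 fold -0.32, SE 0.093, edgeR adjusted p = 0.0402), with groups that overlapped. The accessory subunits Ndufv3 (log2 fold -0.35) and Ndufa12 (-0.30) also fell. Ndufv2, the iron-sulfur partner of Ndufv1, missed the threshold narrowly, at 240 ± 22.0 against 196 ± 28.5 CPM (log2 fold -0.29, edgeR adjusted p = 0.0506). Ndufs4, an accessory subunit whose loss causes a Leigh-like disease in mice, had a log2 fold of -0.24 (edgeR adjusted p = 0.122), and Ndufa2 one of -0.21.

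In the Q module, 3 of 8 members fell in KO mice, with a median log2 fold of -0.28. Ndufs7, an iron-sulfur subunit that helps to form the ubiquinone pocket, went from 157 ± 16.5 CPM in KO_NP to 123 ± 20.1 CPM in KO_LP (log2 fold -0.35, SE 0.102, edgeR adjusted p = 0.042). Ndufs8, which carries the neighbouring iron-sulfur clusters, went from 178 ± 19.1 to 136 ± 25.4 CPM (log2 fold -0.39, SE 0.114, edgeR adjusted p = 0.0415). Ndufa9, an accessory subunit at the joint of the matrix and membrane arms, went from 126 ± 9.81 to 98.9 ± 12.1 CPM (log2 fold -0.35, SE 0.096, edgeR adjusted p = 0.0371). In each of these genes the highest KO_LP library reached into the KO_NP range. Ndufs3, the core subunit with no cofactor, was at 53.8 ± 5.98 and 46.6 ± 5.47 CPM (log2 fold -0.21, edgeR adjusted p = 0.158). The smallest differences below 0 among all members were also here, with Ndufa7 at a log2 fold of -0.16 and Ndufa6 at -0.17, and Ndufa5 stood at -0.23. Over the 7 core subunits of the matrix arm, those shared with the bacterial enzyme, 4 fell and the median was -0.33.

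Accessory subunits of the proximal membrane arm, next to the joint, gave 4 called members of 9 and a median log2 fold of -0.30 in KO mice. Ndufa11, a membrane-spanning subunit, ranged from 181 to 211 CPM in KO_NP (median 185) and from 136 to 169 CPM in KO_LP (median 147). The groups did not overlap, and the log2 fold was -0.34 (SE 0.078, edgeR adjusted p = 0.0231). Ndufa10, an accessory subunit with the fold of a nucleoside kinase, went from 421 ± 34.3 to 323 ± 44.8 CPM. Its highest KO_LP library reached into the KO_NP range, with a log2 fold of -0.38 (SE 0.094, edgeR adjusted p = 0.0255). Ndufa13, also known as GRIM-19, went from 359 ± 31.2 to 274 ± 46.9 CPM (log2 fold -0.39, SE 0.104, edgeR adjusted p = 0.033), and Ndufa3 had a log2 fold of -0.29 (edgeR adjusted p = 0.0415). The members not called were Ndufc1 (log2 fold -0.38, edgeR adjusted p = 0.0526), Ndufc2 (-0.30), Ndufa1 (-0.30), Ndufs5 (-0.27) and Ndufa8 (-0.27).

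Of the 10 members of the distal membrane arm, 3 fell in KO mice, with the lowest median of the modules, -0.34. Ndufb7, which faces the intermembrane space, had the smallest adjusted p of all members. It ranged from 110 to 122 CPM in KO_NP (median 116) and from 81.1 to 106 CPM in KO_LP (median 89.1), with means of 115 ± 4.64 and 91.5 ± 8.67 CPM. The KO_LP libraries were all lower, and the log2 fold was -0.34 (SE 0.073, edgeR adjusted p = 0.0182). Ndufb4 (log2 fold -0.39) and Ndufb6 (-0.38) were called as well. The log2 folds of Ndufb2, Ndufb5, Ndufb8, Ndufb9, Ndufb10 and Ndufb11 lay between -0.35 and -0.25 without passing the threshold. Ndufb3, a small accessory subunit, had the smallest difference of this module, at 616 ± 98.8 CPM in KO_NP and 537 ± 92.5 CPM in KO_LP (log2 fold -0.20, edgeR adjusted p = 0.323).

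**Figure D2:**
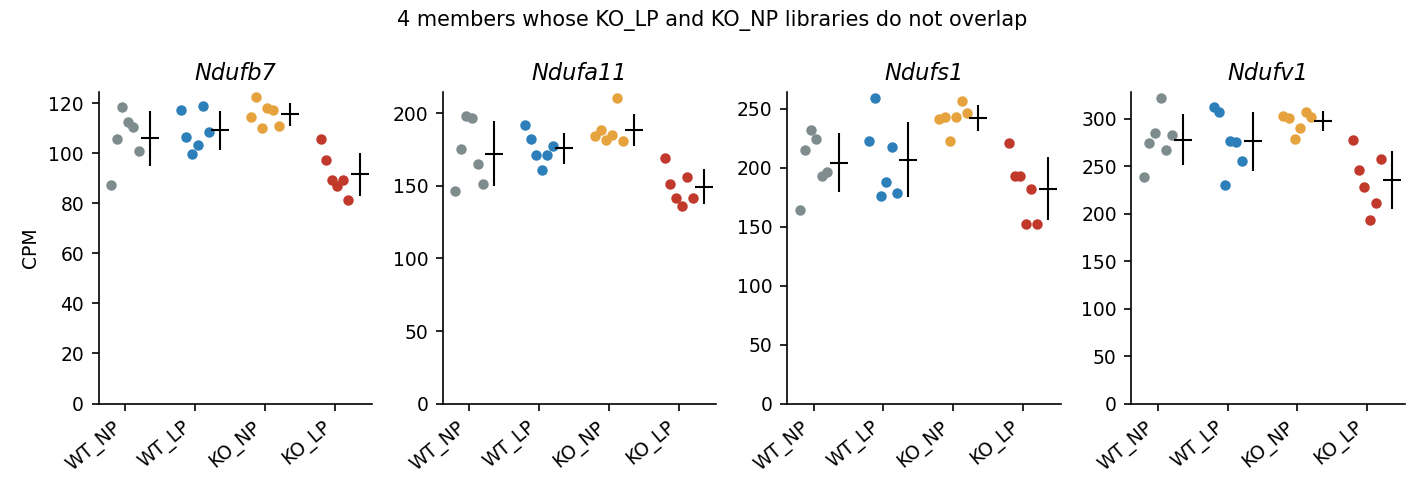
Expression in CPM of the 4 members whose KO_LP and KO_NP libraries do not overlap, with 1 point per library, a horizontal bar at the group mean and a vertical bar for 1 SD (n = 6). The KO_LP points lie below the KO_NP points in each panel, while the wild type groups overlap both.

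The 2 members outside complex I differed from each other. Ndufa4 was at 270 ± 46.0 CPM in KO_NP and 214 ± 34.1 CPM in KO_LP (log2 fold -0.34, SE 0.142, edgeR adjusted p = 0.124). Ndufa4l2, a gene known for its induction under low oxygen, was scarce, at 2.28 ± 0.526 and 2.90 ± 0.749 CPM (log2 fold 0.34, SE 0.220, edgeR adjusted p = 0.315). It was the lone member with a log2 fold above 0, and its wild type difference had the same sign (0.31). Its exons overlap those of Shmt2 on the other strand, which had 30213 counts over all libraries against 836 for Ndufa4l2, and the strand setting of the counting is not given in the sources used here. In all, 13 of the 37 members share exon bases with a gene on the opposite strand, among them Ndufs1 with Eef1b2 (73187 and 136701 counts) and Ndufa11 with Vmac (60697 and 6372 counts). Without strand, such reads could not be told apart. None of the members overlapped a gene on its own strand. Processed copies with rows of their own, Ndufb4c (77 counts in all) and Ndufs6b (263 counts), have no symbol in the deposited table, only in GENCODE, and so are no members. They could in principle take reads of Ndufb4 and Ndufs6.

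In wild type mice no member passed the test between the diets. The number of members called was 0 of 37, against 0% of all genes, and 0 members stood at an unadjusted p under 0.05 (3.82% of all genes). DESeq2 and limma also called 0 members. Of the log2 folds, 20 were above 0 and 17 below (52.5% of all genes were below), with a median of 0.01 and a lowest value of -0.09 (Ndufa10). Ndufb7 measured 106 ± 10.9 CPM in WT_NP and 109 ± 7.61 CPM in WT_LP (log2 fold 0.04, SE 0.073), and Ndufs1 204 ± 25.1 and 207 ± 32.1 CPM (0.02, SE 0.103). Ndufv1 was at 278 ± 27.2 and 276 ± 31.2 CPM (-0.01, SE 0.088). Of the members, Ndufa10 (log2 fold -0.09), Ndufs3 (0.09) and Ndufa4l2 (0.31) had the smallest p in this comparison, each with an edgeR adjusted p of 1.

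The difference of the diet effects, KO minus wild type, was tested directly and gave 0 called members of 37, against 0% of all genes. Its log2 value was below 0 for 36 members (45.2% of all genes), with a median of -0.31, and 20 members stood at an unadjusted p under 0.05, against 16% of all genes. Ndufb7 had the smallest adjusted p, with a difference of -0.38 (SE 0.103, edgeR adjusted p = 0.158). Ndufa11 differed by -0.37 (SE 0.110, edgeR adjusted p = 0.173) and Ndufa13 by -0.45 (SE 0.147, edgeR adjusted p = 0.205). DESeq2 called Ndufb7 alone (log2 difference -0.40, adjusted p = 0.0388). The diet effect was thus called in KO mice for 15 members, but no member's effect was shown by edgeR to differ between the genotypes.

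Across the 4 groups, KO_NP was the highest and KO_LP the lowest for most members. The group mean was highest in KO_NP for 35 of 37 members, the exceptions being Ndufc2 (highest in WT_LP) and Ndufa4l2 (highest in KO_LP). It was lowest in KO_LP for 33, the exceptions being Ndufa4l2, Ndufa5 and Ndufa6 (lowest in WT_NP) and Ndufb3 (lowest in WT_LP). On NP, the KO level exceeded the WT level for 36 members (45.8% of all genes) with a median log2 fold of 0.16, and 0 were called against 0.574% of all genes. At an unadjusted p under 0.05 (12.6% of all genes) were 3 members, Ndufs1 (log2 fold 0.25, SE 0.103, edgeR adjusted p = 0.31), Ndufb3 (0.30) and Ndufs4 (0.21). DESeq2 and limma called 0 members on NP. On LP, KO lay below WT for 34 members (46.2% of all genes) with a median of -0.17, and 0 were called against 2.93% of all genes. That median was 0.018 with the proximal tubule markers as a covariate and 0.022 with the immune markers. Of these, 10 members stood at an unadjusted p under 0.05, against 21.1% of all genes. Ndufb7 came closest, at 91.5 ± 8.67 CPM in KO_LP and 109 ± 7.61 CPM in WT_LP (log2 fold -0.25, SE 0.073, edgeR adjusted p = 0.0568). Ndufc2, an assembly-linked membrane subunit, was at 261 ± 43.9 and 335 ± 59.8 CPM (log2 fold -0.36, SE 0.114, edgeR adjusted p = 0.0776), and Ndufa11 had a log2 fold of -0.24 (edgeR adjusted p = 0.0904). On LP, DESeq2 called Ndufa11, Ndufc2 and Ndufb7, and limma with voom called Ndufb7. These methods called more of all genes there, 910 and 904, against 445 by edgeR. The wild type and KO groups enter more than 1 of these comparisons, so the comparisons are not independent.

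Most members of a library often lay on the same side of their WT_NP means, with no test of this made. For each library the median of the members' log2 deviations from their WT_NP means was taken. It ran from -0.23 to 0.18 in WT_NP, from -0.15 to 0.20 in WT_LP and from -0.04 to 0.29 in KO_NP. In KO_LP it was 0.18, -0.05, -0.22, -0.44, -0.27 and -0.19 for libraries 1 to 6. KO_LP 1 thus lay within the range of KO_NP and also within that of WT_LP. In it 33 members exceeded their WT_NP mean, and it was also the library with the fewest counts, 8.47 M. For Ndufb7, Ndufa11, Ndufs1 and Ndufv1 it still lay below every KO_NP library. KO_LP 4 had 36 members below their WT_NP mean, and WT_NP 1 had all 37 below. At least 30 of the 37 members were on 1 side in 18 of the 24 libraries, and the other 6 were more evenly split, down to 23 below and 14 above in WT_NP 5. As a share of nuclear-encoded counts the members made up 1.23 ± 0.0842% in WT_NP, 1.24 ± 0.0541% in WT_LP, 1.35 ± 0.104% in KO_NP and 1.16 ± 0.128% in KO_LP. The spread of a single member was largest in KO_LP, with a median coefficient of variation of 16.8%, against 10.2% to 12.3% in the other groups. Over all genes that median was 18.6% in KO_LP and 14.7% to 16.4% elsewhere.

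**Figure D3:**
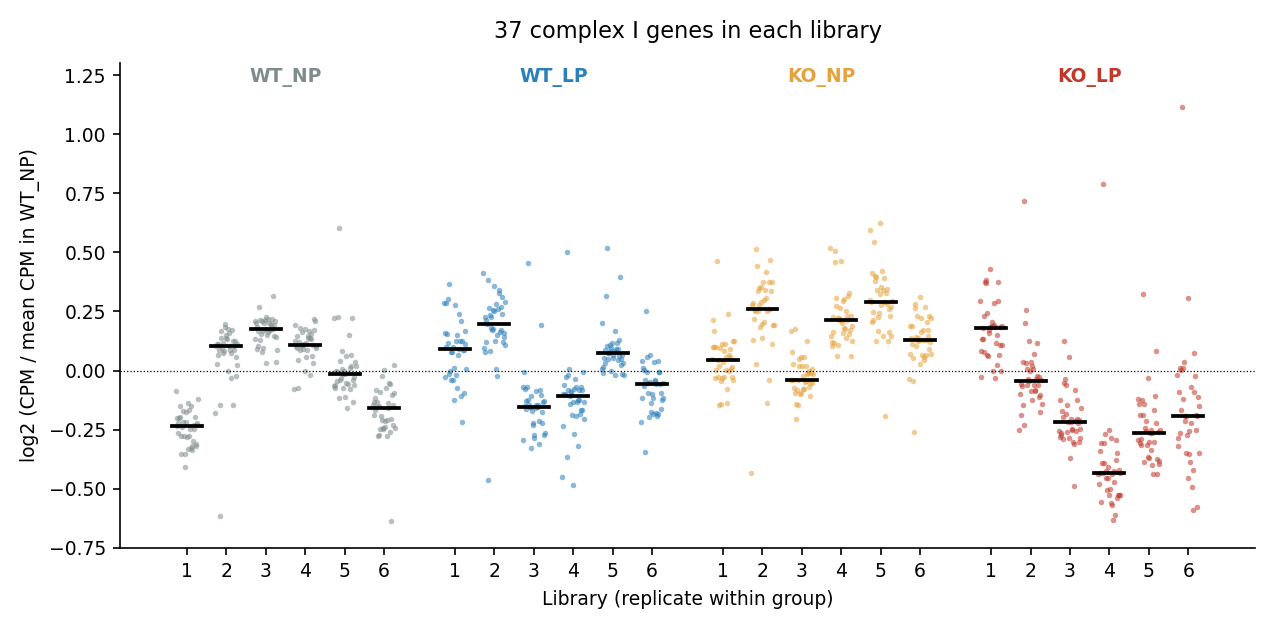
Log2 ratio of each member's CPM to its WT_NP mean in the 24 libraries, with 1 point per member and a bar at the median of the 37. The bars of 5 KO_LP libraries lie below 0, down to -0.44, and that of KO_LP 1 is at 0.18. In KO_LP 2, 3, 4, 5 and 6 the highest single point is Ndufa4l2.

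The number of called members in KO mice depended on single libraries. Leaving out 1 library at a time gave 1 to 26 called members, with 36 below 0 and a median between -0.38 and -0.27 in each of the 24 fits. It was 1 (Ndufb7) without KO_NP 5 or without KO_LP 4, 4 without KO_NP 4, KO_NP 6, KO_LP 5 or KO_LP 6, 5 without KO_NP 1, 6 without KO_NP 2 or KO_LP 3, and 26 without KO_LP 1. The calls over all genes moved too, from 1087 to 122 without KO_NP 5, 136 without KO_LP 4 and 2006 without KO_LP 1. Ndufb7 was called in 24 of 24 such fits, Ndufa10 and Ndufa11 in 22, Ndufs1 in 21 and Ndufv1 in 18.

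Cell type markers differed between the same groups, and their part in the result was not tested. The 14 proximal tubule markers had a median log2 fold of -0.33 in KO mice on LP, with 14 below 0 and 2 called, the phosphate transporter Slc34a1 (log2 fold -0.68, SE 0.188, edgeR adjusted p = 0.0371) and the glucose transporter Slc5a2 (-0.69, SE 0.201, edgeR adjusted p = 0.042). Their summed level was 9517 to 15468 CPM in WT_NP, 9861 to 19085 in WT_LP, 13995 to 17052 in KO_NP and 7308 to 13389 in KO_LP, so the KO groups did not overlap. The 9 macrophage markers had a median log2 fold of 0.89, and 3 rose: the lipopolysaccharide co-receptor Cd14 (1.33), the complement gene C1qa (1.10) and Cd74 (0.99). Their summed level was 382 to 1145 CPM in WT_NP, 373 to 960 in WT_LP, 336 to 541 in KO_NP and 471 to 1476 in KO_LP, and no marker of this list was at 0. In KO_LP and WT_NP the library with the highest sum, KO_LP 4 and WT_NP 1, also had the lowest member median, and KO_NP 5 had the lowest sum of all libraries and the highest member median. The other groups differed: KO_NP 2 had the highest sum of KO_NP, 541 CPM, with a member median of 0.26, and WT_LP 4 had the highest of WT_LP, 960 CPM, while the lowest member median there was that of WT_LP 3, -0.15. All 8 lymphocyte markers tested were above 0, with a median log2 fold of 1.25, and Cd3e alone was called (1.27). Of 6 podocyte markers Wt1 was called higher (0.70), with a median of 0.17. Markers of the thick ascending limb (7, median -0.10), distal tubule and collecting duct (10, -0.19), endothelium (7, 0.10) and fibroblasts (6, 0.45) had no called member. Only Fabp4 of the adipocyte list was abundant enough to test (log2 fold 0.71, edgeR adjusted p = 0.127), with 437 CPM in KO_LP 6, and only Star of the adrenal cortex list, at most 1.26 CPM in any library.

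**Figure D4:**
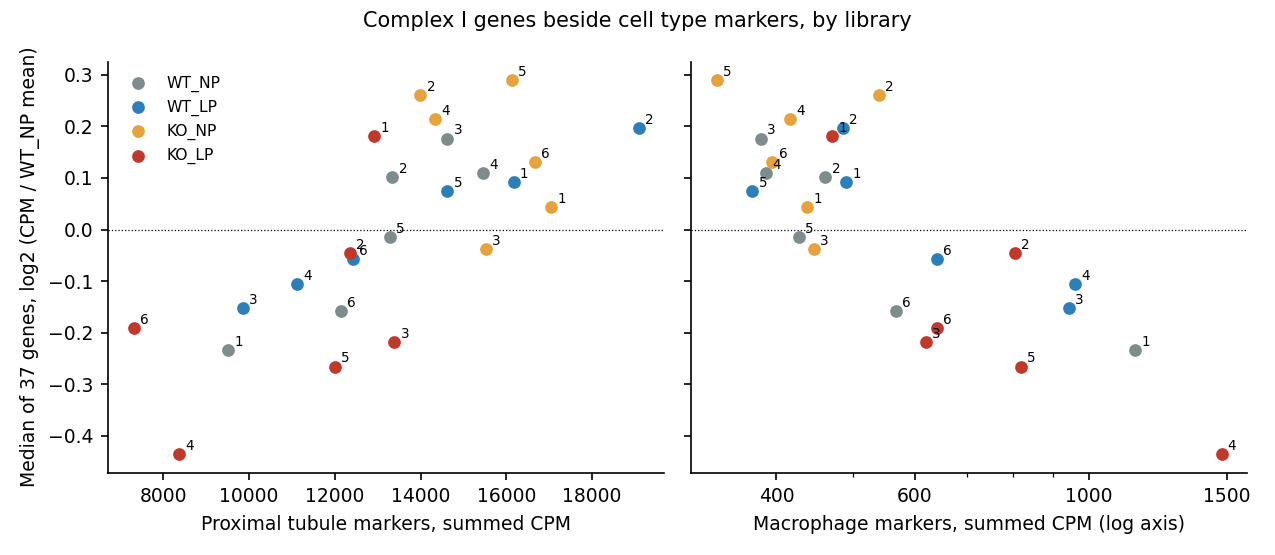
Median log2 deviation of the 37 members in each library against the summed CPM of the proximal tubule markers (left) and of the macrophage markers (right, log axis), with 1 numbered point per library and colours for the groups. KO_LP 4, with 8376 CPM of proximal tubule markers and 1476 CPM of macrophage markers, has the lowest member median, -0.44. KO_LP 6 has fewer proximal tubule markers, 7308 CPM, with a member median of -0.19. Within KO_NP, library 2 has the lowest proximal tubule sum, 13995 CPM, with a median of 0.26, and library 1 the highest, 17052 CPM, with 0.04.

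With the mean log2 level of the proximal tubule markers as a covariate, 0 members were called in KO mice and the median log2 fold was -0.11, and 0 of all genes were called. With the immune markers (macrophage and lymphocyte) the values were 0 members, -0.11 and 12 genes, and with 1 surrogate variable 0 members, -0.11 and 4 genes. The marker levels differ between the KO groups themselves, so diet and marker level cannot be told apart in these fits. Of their groups, KO_LP 4 and WT_NP 1 had the highest macrophage markers, and KO_LP 6 the highest level of Fabp4, the single adipocyte gene tested. Without KO_LP 4, KO_LP 6 and WT_NP 1, 0 members were called, the median was -0.25 and 36 members were below 0. In that fit 36 of all genes were called.

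Genes that work beside the nuclear subunits also had medians below 0 in KO mice on LP, from lists that were chosen with earlier results of these data known. The 6 measured subunits of complex I encoded in mitochondrial DNA were all below 0, with a median log2 fold of -0.50, and 2 fell. Of these, mt-Nd1 had a log2 fold of -0.54 (SE 0.125, edgeR adjusted p = 0.0231), and mt-Nd5, a proton-pumping subunit, went from 4415 ± 587 to 3168 ± 708 CPM (-0.48, SE 0.146, edgeR adjusted p = 0.0474). The scarcest of the 6, mt-Nd3 (-0.70, SE 0.668, edgeR adjusted p = 0.517) and mt-Nd6 (-0.22, SE 0.186, edgeR adjusted p = 0.47), also count in that median. In KO_NP alone mt-Nd3 ran from 6.96 to 161 CPM, and mt-Nd6 had a mean of 10.3 CPM. Mitochondrially encoded transcripts made up 28.1% of the counts in KO_NP and 23.1% in KO_LP, against 25.3% in WT_NP and 25.9% in WT_LP. Of 19 assembly factors and related genes 5 fell and 0 rose (median -0.23). They were Nubpl, which delivers iron-sulfur clusters to the enzyme (-0.50), the assembly factors Ndufaf4 (-0.43), Ndufaf2 (-0.40) and Tmem126b (-0.31), and Ndufab1, the mitochondrial acyl carrier protein that is also a subunit (-0.40).

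The other mitochondrial lists had medians below 0 as well. Of 4 subunits of complex II, the other entry of electrons to ubiquinone, Sdhb fell, from 727 ± 87.4 to 536 ± 111 CPM (log2 fold -0.44, edgeR adjusted p = 0.0393), and the median was -0.33. Of 13 tricarboxylic acid cycle genes 4 fell, among them Dlst (-0.39), Ogdh (-0.34) and Mdh2 (-0.31), with a median of -0.29. Of 10 genes of the outer membrane and import machinery Vdac1, the main channel of that membrane, fell (-0.40), with a median of -0.21. Among 11 regulators of mitochondrial biogenesis 2 fell, the coactivator Ppargc1a (100 ± 8.69 to 77.6 ± 12.5 CPM, log2 fold -0.37, edgeR adjusted p = 0.0428) and its partner receptor Esrra (-0.40, edgeR adjusted p = 0.0374). The median of the regulators was -0.15, with 8 below 0 and 3 above. Those above 0 were Nrf1 (0.25, SE 0.081, edgeR adjusted p = 0.0555), Pprc1 (0.26) and Gabpb1 (0.17), and 0 regulators were called higher. No member of these lists was called in wild type mice on LP or in the difference of the diet effects. Medians of that difference were -0.55 for the mitochondrially encoded subunits, -0.21 for assembly and -0.37 for complex II. They were -0.29 for the tricarboxylic acid cycle, -0.16 for the outer membrane and -0.13 for the regulators. Between the genotypes on LP, the assembly factor Ndufaf4 was called lower in KO (log2 fold -0.49, edgeR adjusted p = 0.0203). It was 1 of 19 assembly genes, while 1.59% of all genes were called lower. All 19 assembly genes were below 0 there (46.2% of all genes), with a median of -0.16.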

How the data were processed

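QuantSeq 3′ libraries of 24 kidney cortex samples were sequenced as 50-base forward reads, per the labels' protocols. Raw counts per gene were deposited by the authors, beside a normalized signal. In every library that deposited signal was the count over a single size factor (largest relative deviation 5.6e-15). The submitters' processing notes name GRCm38 and DESeq2 1.22.2. For the aligner, the counter and its strand setting, nothing was given in the sources used here. No gene had a mean count under 3. Symbols came from the files for 14208 of 16921 rows and from GENCODE M21, which also gave the coordinates, for 2668 more, and 45 had none.

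The counts were fitted with edgeR 4.0.16 in R 4.3.3 (filterByExpr, TMM, robust quasi-likelihood fit of 4 group means over 24 libraries, two-sided tests, Benjamini-Hochberg adjustment over 15165 genes). The filter left out 1756 genes. Library totals ran from 8.47 to 21.1 M counts (median 15.0 M), and the common biological coefficient of variation was 19.6%. Alternatives used limma 3.58.1, DESeq2 1.42.0 and sva 3.50.0, another scaling, filter or set of libraries, and marker or surrogate covariates. The scripts were tested on simulated data. Promoter letters were searched and figures drawn with Python 3.11.15, numpy 2.4.6, pandas 2.3.3 and matplotlib 3.10.9. Genes described in full were the 7 core subunits, Ndufa4, Ndufa4l2 and, per comparison, up to 8 called members with the smallest p, or 3 where none was called, 18 in all. The other members are given with their log2 fold. A few genes are counted but not reported here by name. The members, lists and tests were chosen with earlier results of these data known. Replicate numbers are names in accession order and pair nothing.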

Additional observations from a re-analysis of the deposited data

Results flagged for a closer look

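Of 72 tests for a library standing apart from the other 5 of its group, over the 18 members described in full, 2 were positive, where chance gives about 1 in 20. Ndufa11 measured 210.907 CPM in KO_NP 5, while the other KO_NP libraries lay between 181 and 188 CPM, so that the gap was 0.759 of the group's range (critical value 0.625). Without KO_NP 5 the log2 fold of Ndufa11 in KO mice on LP was -0.30 (edgeR adjusted p = 0.0563), against -0.34 with it. In that fit 14 of the 15 called members lost their call, and 122 of all genes were called against 1087. The call of Ndufa11 was also lost without KO_LP 4 (-0.31, edgeR adjusted p = 0.0617). Ndufa4l2 measured 1.37591 CPM in WT_LP 2, while the other WT_LP libraries lay between 2.25 and 2.72 CPM (gap 0.656 of the range).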

How the results depend on the processing

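In KO mice on LP, edgeR called 15 members lower. The count was 16 with the size factors of DESeq2, 13 without a filter on low counts, 18 with at least 5 CPM in 6 libraries, 17 with limma on the log2 normalized values plus 1 and 15 without the mitochondrially encoded genes. It was 7 with only the compared libraries (1107 of all genes called, against 1087), and 23 both with limma and voom quality weights (1744 genes) and with DESeq2 (1846 genes). It was 0 with 1 surrogate variable, 0 with the proximal tubule covariate, 0 with the immune covariate and 0 without KO_LP 4, KO_LP 6 and WT_NP 1, an alternative chosen after seeing the data. Leaving out 1 library at a time gave 1 to 26. For KO against wild type on LP, edgeR called 0 members and 445 of all genes. The count was 1 (Ndufb7) with at least 5 CPM (397 genes), 1 (Ndufb7) with limma and voom (904 genes) and 3 with DESeq2 (910 genes). It was 1 with a surrogate variable (290 genes), where the member was Ndufb3 and was higher in KO (log2 fold 0.36). In this comparison, leaving out 1 library gave 0 to 6, with 6 without KO_LP 1 (658 genes) and 1 each without WT_NP 1, WT_LP 3 and WT_LP 4. The median of the members on LP was -0.17 and changed sign to 0.018 with the proximal tubule covariate and to 0.022 with the immune covariate. For the difference of the diet effects DESeq2 called 1 member and the other fits 0, leave-one-out fits included, and a fit of only the compared libraries does not exist for it. For LP in wild type and for KO against wild type on NP, 0 members were called in every fit. Where a count changed, the cause was not tested. Of the values of single members under the alternatives, none turned its direction while called, 98 lost a call, 30 gained one and 3089 did neither. No paired analysis was possible because the labels give no replicate numbers. Depth limits Ndufa4l2 most, with 16 counts in its lowest library.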
